A study of Mus musculus with 5 samples.

Results

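The potassium channel genes of the mouse were examined for binding of TLX and for acetylated chromatin in cultured neural stem cells (NSC) and brain tumour stem cells (BTSC). The members were all protein-coding genes in RefSeq's gene table for GRCm38.p6, which is mm10, whose symbol has the form Kcn, 1 or more letters and a number, a rule that uses names and no measured value; it gave 92 of 21887 genes. TLX, the product of Nr2e1, is a nuclear receptor that maintains self-renewal of neural stem cells and is known mainly as a transcriptional repressor. It was precipitated through a TY1 tag with an antibody against TY1 from NSC and from BTSC that carried the retroviral transgene TLX-3xTY1, so the libraries report the introduced tagged protein and not the endogenous one. H3K27ac, the acetylation of lysine 27 of histone H3 found at active promoters and enhancers, was precipitated from NSC and BTSC that had not been transduced. A control without antibody came from cells with the empty vector MSCV-neo and was not analysed here. The labels describe the NSC as primary mouse cells; neither the strain and age of the mice nor the origin of the tumour cells is stated in the sources used here.

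Each of the 4 groups with a peak list held 1 library, so every value is from a single library, no test between groups was possible and no p-value is given. The peak lists held 7458 TLX peaks in NSC and 1436 in BTSC, and 31266 H3K27ac peaks in NSC and 31597 in BTSC; read numbers are unknown, so a gene without a peak may still be bound or acetylated below what a library could show. Between the H3K27ac lists, chromosome 1 had 1965 peaks in NSC and 2662 in BTSC and chromosome 6 had 1997 and 1609, so members on these chromosomes (9 and 5) are named as such. Of 10 markers of neural stem cells, 8 had H3K27ac within 1 kb of a gene end in NSC and 7 in BTSC, among them Sox2, Nes, Fabp7 and Vim in both; of 5 microglial and 4 endothelial markers none had it in either list. The counts were 5 and 2 of 8 for neuronal markers, 4 and 5 of 6 for astrocyte markers, 2 and 4 of 7 for oligodendrocyte markers and 1 and 2 of 5 for muscle and heart markers. Over all protein-coding genes the shares were 52.2% in NSC and 51.7% in BTSC.

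Potassium channels let potassium leave or enter the cell down its gradient and so set the resting membrane potential and end action potentials. Pore-forming subunits of the voltage-gated (Kv), inward-rectifier (Kir), 2-pore-domain and calcium-activated classes assemble with one another and with auxiliary subunits that change their gating or their traffic to the membrane. Neurons express many Kv genes, whereas astrocytes and other glia rely on Kir channels to take up potassium, and potassium channels are also known to influence the proliferation and volume changes of progenitors and glioma cells.

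The share of potassium channel genes with a TLX peak was close to that of all genes, and the share with H3K27ac at an end was lower. A TLX peak overlapped the gene or the 10 kb around it at 24 of 92 members in NSC, 26.1% (95% Clopper-Pearson interval 17.5 to 36.3, counting error only), against 24.8% of all protein-coding genes. In BTSC it did so at 3 members, 3.26% (0.678 to 9.23), against 5.12% of all genes. All 3 were also among the 24 of NSC, and 4.59% of all genes had a TLX peak in both lists. H3K27ac lay within 1 kb of a gene end at 32 members in NSC, 34.8% (25.1 to 45.4), against 52.2% of all genes. In BTSC it lay there at 29 members, 31.5% (22.2 to 42.0), against 51.7% of all genes. For 47 members, 51.1% (40.4 to 61.7), neither list of TLX had a peak and neither list of H3K27ac reached an end. Of all genes 41.9% were in this class.

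**Figure D1:**
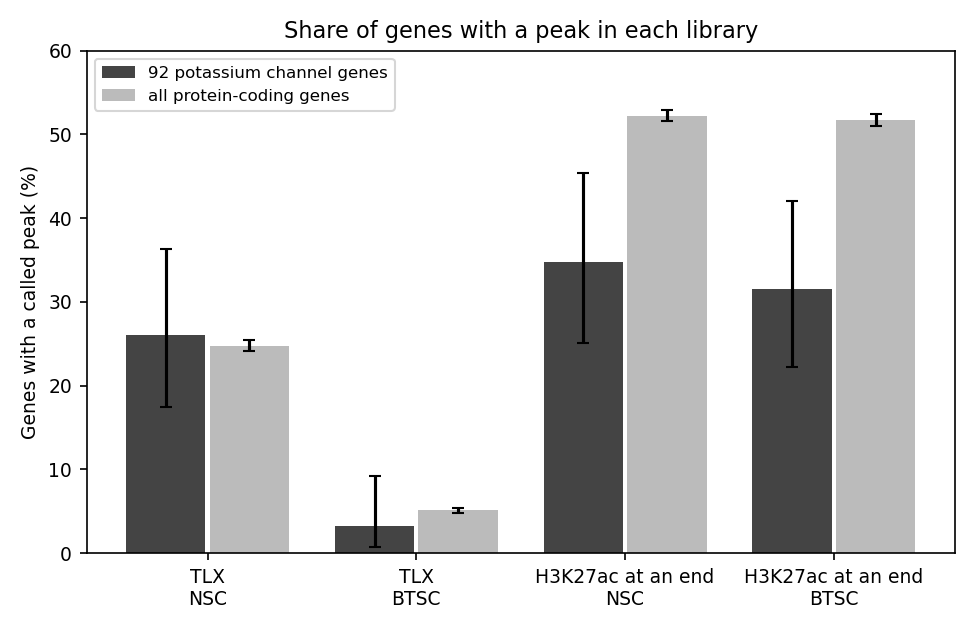
Share of genes with a called peak (%, y axis) in each of the 4 libraries (x axis), for the 92 potassium channel genes (dark bars) and all 21887 protein-coding genes (light bars); error bars are exact 95% intervals of counting error within 1 library. The dark bars are near the light ones for TLX, at 26.1% against 24.8% in NSC, and below them for H3K27ac at gene ends, at 34.8% against 52.2% in NSC.

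Length bears on the TLX counts, since a longer gene offers more room for a peak. The members were longer than genes in general, with a median length of 34546 bp against 17169 bp. Among genes of 300 kb or more, 7 of 14 members had a TLX peak in NSC, against 344 of 557 of all genes. Among genes from 100 to under 300 kb it was 4 of 9 members against 905 of 1872 genes, and from 30 to under 100 kb 7 of 27 against 1638 of 5077. Among those from 10 to under 30 kb it was 4 of 23 against 1394 of 6456, and under 10 kb 2 of 19 against 1149 of 7925. In each of these 5 classes the members' share was below that of all genes, and the share of all genes lay within the members' 95% interval.

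By family, TLX in NSC was found at 6 of 17 pore subunits of Kv1 to Kv4 (Kcna2, Kcna7, Kcnc1, Kcnc4, Kcnd2 and Kcnd3), at 4 of 5 Kv7 subunits (Kcnq5 among them, with 2 peaks) and at 3 of 5 calcium-activated pores (Kcnma1, Kcnn2 and Kcnn3). It was found at 6 of 15 auxiliary subunits (Kcnab2, Kcnab3, Kcnip2, Kcnip3, Kcnmb2 and Kcnmb4) and at 2 of 15 inward rectifiers (Kcnj10 and Kcnj16). The EAG, ERG and ELK class had 1 of 8 (Kcnh7), the 2-pore-domain class 1 of 14 (Kcnk10) and the electrically silent Kv subunits, which work only together with other Kv subunits, 1 of 10 (Kcnv1). None of the 3 genes Kcnt1, Kcnt2 and Kcnu1 had one. Over all genes the share with TLX in NSC was 24.8%. The families are small and differ in gene length, and differences between them were not tested. The median length was 300263 bp for Kv7 genes and 152331 bp for calcium-activated pores. Of all genes, 48.3% of those from 100 to under 300 kb and 61.8% of those of 300 kb or more had TLX in NSC. The 3 members with TLX in BTSC were Kcnd3, Kcnj10 and Kcnma1, from 3 different families.

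**Figure D2:**
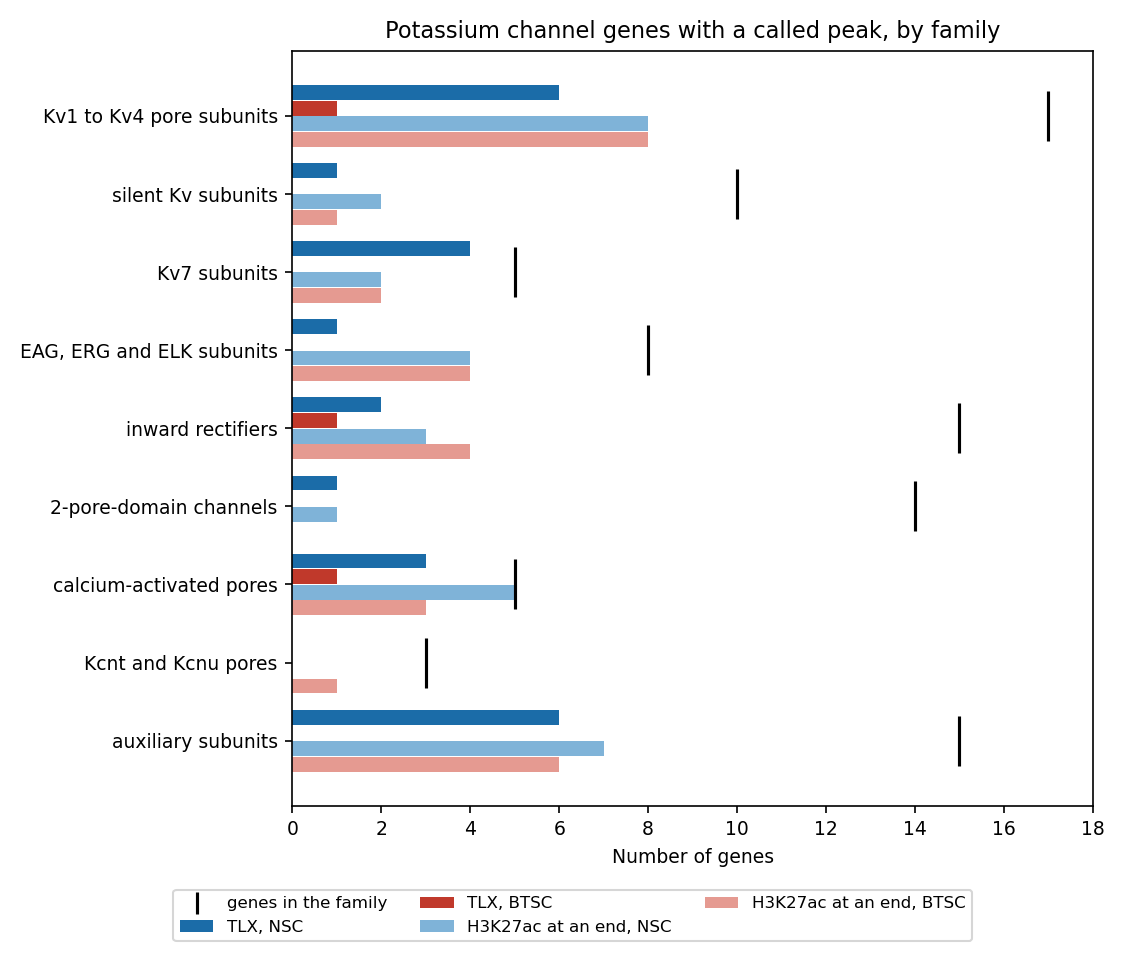
Number of genes (x axis) with a TLX peak or with H3K27ac within 1 kb of a gene end in each library, by family (y axis); black marks give the number of genes in the family. TLX in BTSC is seen in 3 families with 1 gene each, and all 5 calcium-activated pores had H3K27ac at an end in NSC.

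Kcnd3, on chromosome 3 from 105451890 to 105674002, had the most TLX peaks of the family. It encodes the Kv4.3 pore of the fast-inactivating A-type current, which restrains the firing of neurons. The NSC list held 5 peaks inside the gene, with folds over background of 5.16, 8.61, 8.61, 4.97 and 14.7 from the start of the gene onwards; these folds, and all below, are the authors' values per peak. The BTSC list held 3, with folds of 5.26, 5.72 and 5.74. The strongest NSC peak, at 105585434 to 105586343, ranked 71 of 7458 and overlapped the BTSC peak at 105585558 to 105586135, which ranked 578 of 1436. Another site was called in both lists, at 105530387 to 105531246 in NSC and 105530640 to 105531103 in BTSC. The third BTSC peak, at 105632977 to 105633468, met no NSC peak, and the NSC peak nearest to the start, whose summit lay 736 bp inside the gene, had no counterpart in BTSC. All 8 lay in H3K27ac of both cultures. The gene and the 10 kb around it held 20 H3K27ac regions in NSC covering 66520 bp and 15 in BTSC covering 42405 bp; 6 of the NSC regions and 2 of the BTSC regions met none of the other list. Near the gene ends alone the covered lengths were close, at 6656 and 6262 bp, so the difference lay inside the gene.

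Kcnj10, on chromosome 1 from 172341210 to 172374085, had 3 TLX peaks in each list. It encodes Kir4.1, the inward rectifier with which astrocytes buffer potassium. In NSC the peaks had folds of 5.16, 6.31 and 4.94 and ranks of 3098, 1586 and 3041, and in BTSC folds of 4.12, 5.49 and 3.67 and ranks of 1272, 634 and 1345. Of the BTSC peaks, only that of rank 634 passed a −log10 q of 5. The first and the last site were shared, at 172342496 to 172343242 and 172358636 to 172359473 in NSC. The middle NSC peak, at 172349893 to 172350450, was not called in BTSC, and the BTSC peak at 172340752 to 172341203, directly before the annotated start, was not called in NSC. Chromosome 1 held 461 of the 7458 NSC peaks and 297 of the 1436 BTSC peaks of TLX, and the part of this in the Kcnj10 peaks was not tested. The 6 peaks lay in a single H3K27ac region per list that ran over the start, 20049 bp wide in NSC and 28074 bp in BTSC.

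Kcnma1, on chromosome 14 from 23292288 to 24005110, held the strongest TLX site of all members. It encodes the pore of the BK channel, which opens with voltage and calcium together. The NSC peak at 23848451 to 23849357 had a fold of 16.4 and ranked 42 of 7458; the BTSC peak at 23848611 to 23849206 had a fold of 11.7 and ranked 33 of 1436. The NSC summit lay 155237 bp from the nearest listed start, inside the gene. The 2 remaining NSC peaks, with folds of 3.82 and 3.87, had no counterpart in BTSC, and the second lay at the start of the gene. H3K27ac at the start was alike in both lists, 1547 and 1605 bp wide with folds of 9.38 and 9.74, whereas the gene and the 10 kb around it held 11 regions in NSC and 8 in BTSC.

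**Figure D3:**
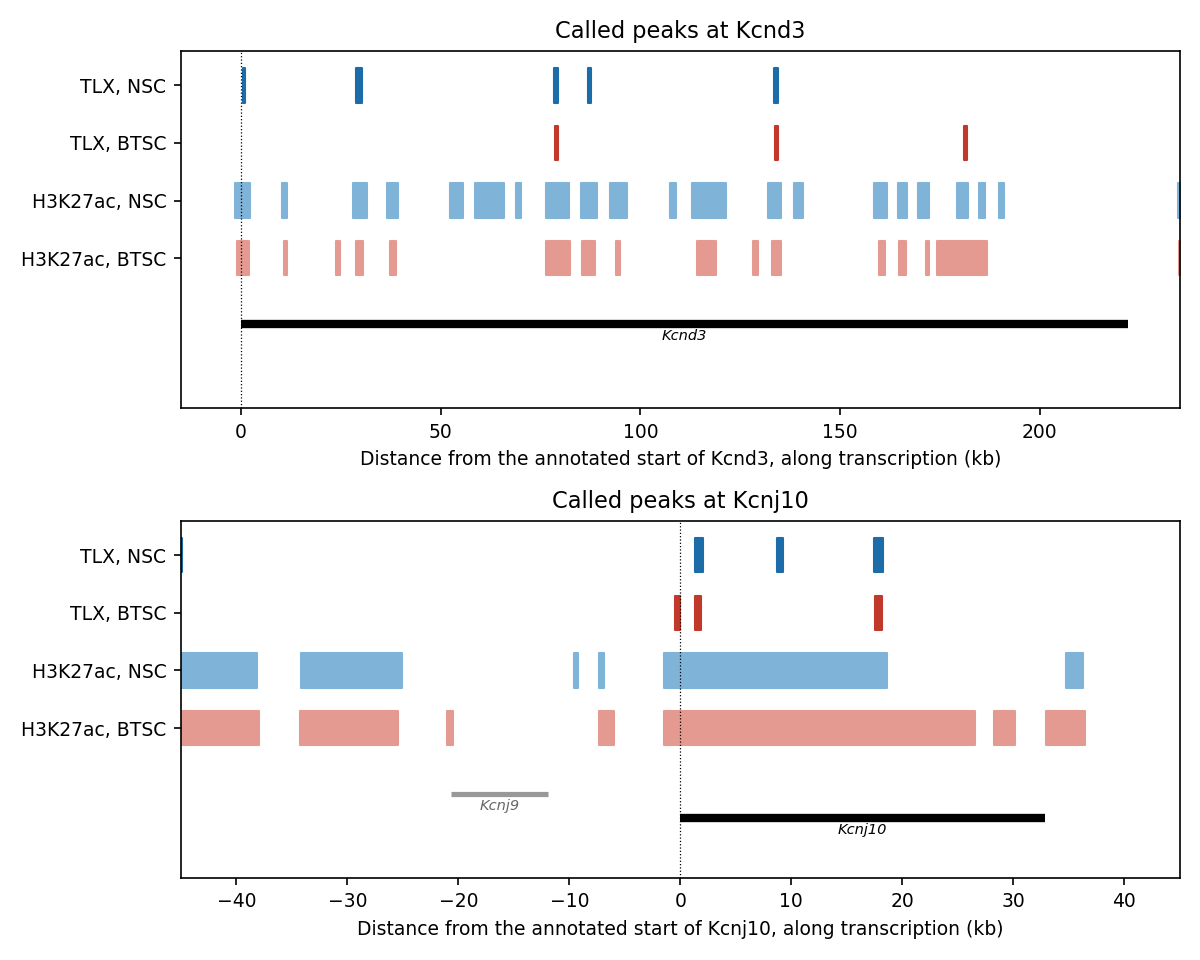
Called peaks at Kcnd3 and at Kcnj10; the x axis is the distance from the annotated start in kb, along transcription, and each row is 1 library, with potassium channel genes alone drawn below. Of the 5 NSC and 3 BTSC TLX peaks in Kcnd3, 2 sites coincide, and at Kcnj10 the H3K27ac region over the start is 20049 bp wide in NSC and 28074 bp in BTSC.

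Among members with TLX in the NSC list only, the calcium-activated SK3 channel gene Kcnn3 had 3 peaks inside the gene, with folds of 4.74, 4.02 and 5.16, and Kcnd2, which encodes the Kv4.2 pore, had 3 with folds of 5.46, 3.96 and 4.87 on chromosome 6. Kcnip3 encodes a calcium-binding auxiliary subunit of Kv4 channels, also known as the transcriptional repressor DREAM, and had 2, with folds of 5.93 and 4.78. Kcnn2, the SK2 gene, had 2 with folds of 6.69 and 4.4. Next to Kcnma1 and Kcnd3, the NSC peaks of highest q were those at Kcnmb4, the neuronal auxiliary subunit of BK channels (fold 9.75, rank 331), and at Kcnj16 (fold 7.46, rank 903), which encodes Kir5.1, the partner of Kir4.1. Kcnmb2, another BK auxiliary subunit, followed with a fold of 7.27 (rank 1029), then Kcnh7 (6.88, rank 1228), the stronger peak of Kcnn2 (rank 1365) and Kcna7 (6.5, rank 1525).

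Position and neighbours qualify some of these assignments. Of the 40 NSC peaks, 32 had their summit inside the member and 6 lay within 1 kb of one of its ends. For 3 the nearest gene end was that of another gene: the peak of Kcna7 lay 20 bp from an end of Snrnp70, that of Kcnip2 328 bp from Oga and that of Kcnab3 2444 bp from Chd3. For 7 no gene end was within 100 kb, all inside long members such as Kcnma1, Kcnn2, Kcnh7 and Kcnmb2. With the NSC list reduced to the 1436 peaks of highest q, the number in the BTSC list, 7 members had TLX in NSC, namely Kcnd3, Kcnma1, Kcnmb4, Kcnj16, Kcnmb2, Kcnh7 and Kcnn2, against 4.86% of all genes, and Kcnj10 was not among them.

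Nearly all TLX peaks at members lay in acetylated chromatin. Of the 40 NSC peaks, 37 (92.5%, 79.6 to 98.4) overlapped H3K27ac of NSC, against 93.9% of the 5734 NSC peaks assigned to any protein-coding gene in the same way. Of the 7 BTSC peaks, all 7 (59 to 100%) overlapped H3K27ac of BTSC, against 94.7% of 1023. The 3 NSC peaks outside it were those of Kcnh7, Kcnmb2 and Kcnc4. These lay outside H3K27ac of BTSC as well, and these 3 genes had 0 covered bp near their ends in both lists. Kcnmb2 did have an NSC region of 2951 bp inside the gene (fold 6.12), away from its TLX peak, and no region in BTSC. Of the BTSC peaks at members 5 of 7 (71.4%, 29.0 to 96.3) overlapped an NSC TLX peak, against 80.8% for all genes, and of the NSC peaks 5 of 40 (12.5%, 4.19 to 26.8) overlapped a BTSC peak, against 14.4%.

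Promoter windows, from 250 bp before to 50 bp after a start, were listed by RefSeq (GRCm38.p6) for 67 of the 92 members. A TLX peak overlapped such a window at 6 members in NSC (8.96%, against 11.4% of the 17492 protein-coding genes with an entry), namely Kcnab2, Kcnc1, Kcnd2, Kcnip3, Kcnj16 and Kcnma1. In BTSC 1 window had a TLX peak (1.49%, against 1.55%), that of Kcnj10. The 250 bases before the start are shown for 2 pairs of genes whose products assemble into 1 channel, the Kv4 pore gene Kcnd2 with the auxiliary subunit gene Kcnip3, and the Kir genes Kcnj10 and Kcnj16. The TLX summit lay 1 bp before the start of Kcnd2, 261 bp before that of Kcnip3 and 221 bp before the listed start of Kcnj16 in NSC, and 282 bp before that of Kcnj10 in BTSC. The last sequence is that of Kcnn4, whose start had H3K27ac in NSC alone. Capitals mark the TLX core site AAGTCA, the GC box GGGCGG, the CCAAT box CCAAT and the AP-1 site TGACTCA, each searched on both strands; the letters of these 4 motifs do not contain one another.
Kcnd2, chr6:21215096-21215345, plus strand: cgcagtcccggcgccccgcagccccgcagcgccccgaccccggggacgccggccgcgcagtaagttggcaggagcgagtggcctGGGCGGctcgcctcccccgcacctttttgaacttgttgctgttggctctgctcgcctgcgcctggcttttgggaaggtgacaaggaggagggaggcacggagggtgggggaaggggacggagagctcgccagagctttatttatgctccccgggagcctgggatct
Kcnip3, chr2:127522095-127522344, minus strand: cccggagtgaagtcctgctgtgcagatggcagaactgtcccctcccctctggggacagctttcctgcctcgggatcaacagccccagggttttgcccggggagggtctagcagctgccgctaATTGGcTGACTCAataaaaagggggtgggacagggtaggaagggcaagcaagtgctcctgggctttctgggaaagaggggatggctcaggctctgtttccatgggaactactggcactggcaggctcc
Kcnj10, chr1:172340960-172341209, plus strand: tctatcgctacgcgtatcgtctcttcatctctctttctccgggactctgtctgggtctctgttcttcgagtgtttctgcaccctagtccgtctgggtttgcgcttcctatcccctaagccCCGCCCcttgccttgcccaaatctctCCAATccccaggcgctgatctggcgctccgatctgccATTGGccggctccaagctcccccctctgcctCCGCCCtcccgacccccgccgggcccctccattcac
Kcnj16, chr11:110997237-110997486, plus strand: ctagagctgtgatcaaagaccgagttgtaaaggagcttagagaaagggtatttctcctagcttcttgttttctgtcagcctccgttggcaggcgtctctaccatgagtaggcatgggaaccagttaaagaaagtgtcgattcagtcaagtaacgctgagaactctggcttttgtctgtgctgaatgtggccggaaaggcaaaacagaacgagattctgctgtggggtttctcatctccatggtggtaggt
Kcnn4, chr7:24370013-24370262, plus strand: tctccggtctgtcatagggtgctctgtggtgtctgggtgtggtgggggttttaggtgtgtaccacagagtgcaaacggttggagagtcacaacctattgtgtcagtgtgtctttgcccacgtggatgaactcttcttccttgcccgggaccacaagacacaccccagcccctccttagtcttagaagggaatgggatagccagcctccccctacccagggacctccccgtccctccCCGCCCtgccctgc

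The core site AAGTCA was in none of the 8 windows examined, which are these 5 and those of Kcnab2, Kcnc1 and Kcnma1. It was in 11.5% of all 21263 windows of protein-coding genes and in 10.8% of the 2242 with a TLX peak in NSC. Only the 250 bases before a start were searched, in all windows. Kcnn4 had no TLX peak in its window. The TLX summits of Kcnc1, Kcnip3, Kcnj10 and Kcnma1 lay outside the searched bases, so the letters under those summits were not searched. The GC box was present in 6 of the 8, with 3 copies at Kcnc1 and Kcnma1, 2 at Kcnj10 and 1 at Kcnab2, Kcnd2 and Kcnn4; it was in 42.6% of all windows, in 62.2% of those with a TLX peak in NSC and in 62.3% of the 10862 with H3K27ac in NSC. CCAAT was present 5 times at Kcnab2, 2 times at Kcnj10 and once at Kcnip3, and in 35.4% of all windows at least once. The AP-1 letters were at Kcnip3 alone of the 8 and in 4.06% of all windows. The GC content ran from 47.6% at Kcnj16 to 79.2% at Kcnma1. These matches describe the letters of the windows.

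At gene ends, H3K27ac was called in both cultures for 24 members, 26.1%, against 49.6% of all genes. It was called in the NSC list only for 8 members, 8.70% (3.83 to 16.4), against 2.62% of all genes, and in the BTSC list only for 5, 5.43% (1.79 to 12.2), against 2.09%. The 24 in both included Kcnd2, Kcnd3, Kcnc1, Kcnj2, Kcnj10, Kcnma1, Kcnn1, Kcnn3 and Kcnmb4. Strong marks stood at the start of Kcnd3 (fold 25.8 in NSC, rank 299 of 31266, and 16.2 in BTSC), at the start of Kcnab2, which encodes a beta subunit of Kv1 channels (17.1 and 18.6), and at Kcnip3 (20.8 and 20.8) and Kcnj10 (17.7 and 22.7). The Kcnab2 peak lay within 1 kb of an end of Nphp4 as well, those of Kcnip3 within 1 kb of an end of Prom2, and the peak of highest fold at Kcnj14 (24.3 and 18.8) within 1 kb of an end of Cyth2.

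The 8 members in the NSC class included Kcnn4, Kcnk5, Kcna6, Kcnip2, Kcnf1, Kcnh8 and Kcnn2. Kcnn4 encodes KCa3.1, a calcium-activated channel of non-excitable cells that is known from migrating glioma cells. Its start carried an NSC region of 8395 bp with a fold of 12 and a −log10 q of 58.2, and a second one lay at the 3′ end. In BTSC the gene had a single region of 2558 bp, with a fold of 7.28, that began inside the gene. Kcnk5, a 2-pore-domain channel sensitive to alkaline pH, had an NSC region of 742 bp (fold 3.85). Weaker regions stood at 5 members, with folds of 2.85 at Kcna6, 3.43 at Kcnip2, 2.64 at Kcnf1, 2.49 at Kcnh8 and 2.29 at Kcnn2, and none of these 5 passed a −log10 q of 5. Of these 5, Kcnn2 alone had more H3K27ac in BTSC over the gene and the 10 kb around it. There BTSC had 7 regions covering 17001 bp, and NSC had 4 covering 7007 bp.

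The 5 members in the BTSC class included Kcnt1, Kcnh4, Kcna5 and Kcnj9. Kcnt1, a sodium-activated channel gene, had a BTSC region of 3034 bp (fold 3.73). Those of Kcnh4 (fold 3.04), Kcna5 (2.5, chromosome 6) and Kcnj9 (2.46, chromosome 1, within 1 kb of an end of Igsf8) did not pass a −log10 q of 5. With that threshold in both lists, 5 members were in the NSC class, among them Kcnn4, Kcnk5, Kcna3 and Kcne4, against 2.71% of all genes, and 2 in the BTSC class, among them Kcnt1, against 2.05%.

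The listed starts gave a related picture. H3K27ac overlapped a promoter window of 26 of the 67 members in NSC, 38.8% (27.1 to 51.5), against 52.2% of all genes with an entry. In BTSC it overlapped one of 20 members, 29.9% (19.3 to 42.3), against 51.4%. For 7 members this was so in NSC alone, namely Kcnn4, Kcnk5, Kcnip2, Kcnf1, Kcnh8, Kcnc2 and Kcnip1, and for 1, Kcnn1, in BTSC alone; over all genes with an entry the shares were 2.40% and 1.61%. At Kcnc2 a region was called near the first start in both lists. It ended at 112270871 in NSC, the first base of a window, and at 112270838 in BTSC, so the call in NSC alone rests on an overlap of 1 bp. At Kcnn1 and Kcnip1 the difference was at an internal listed start.

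Acetylated ends by family stand beside shares of 52.2% and 51.7% over all genes; the families are small, and differences between them were not tested. All 5 calcium-activated pores had H3K27ac at an end in NSC and 3 in BTSC, and for the EAG, ERG and ELK class it was 4 of 8 in each list, 3 of them shared. Of the 17 Kv1 to Kv4 pores 8 had it in each list, 6 of them shared, of the 15 auxiliary subunits 7 in NSC and 6 in BTSC, and of the 5 Kv7 subunits 2. Inward rectifiers had 3 of 15 in NSC and 4 in BTSC and silent Kv subunits 2 and 1 of 10. Of the 14 genes of 2-pore-domain channels, which carry the background leak of potassium, only Kcnk5 had it, in NSC; Kcnk2 (TREK-1) had none at its ends but had H3K27ac over 3 internal listed starts in both lists. No covered bp in either list within 25 kb of their ends were found at 19 members (20.7%, against 26.6% of all genes): Kcna1, Kcnb2, Kcnc4, Kcng1, Kcng2, Kcns2, Kcns3, Kcnh1, Kcnh7, Kcnj3, Kcnj8, Kcnj15, Kcnk9, Kcnk12, Kcnk18, Kcnt2, Kcnip1, Kcnmb1 and Kcnmb2.

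The H3K27ac-covered length, counted in the 25 kb on both sides of a gene's ends, ran from 0 to 35486 bp in NSC and from 0 to 35238 bp in BTSC, with medians of 2327 and 2140 bp against 2441 and 2569 bp over all genes. It was greater in BTSC for 34 members (37.0%, against 43.0% of all genes), greater in NSC for 39 (42.4%, against 30.4%) and equal for 19 (20.7%, against 26.6%). The median difference was 0 bp for the members and for all genes. The order changed little without chromosomes 1 and 6, with 28 of 78 members greater in BTSC and 36 in NSC (35.9% and 46.2%, against 42.6% and 30.5% of all genes there). Of the 92 members, 54 had an end of another protein-coding gene within these windows. Among the 38 without one, 10 were greater in BTSC (26.3%) and 18 in NSC (47.4%). The shares of 43.0% and 30.4% over all genes were not limited to genes without such neighbours.

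**Figure D4:**
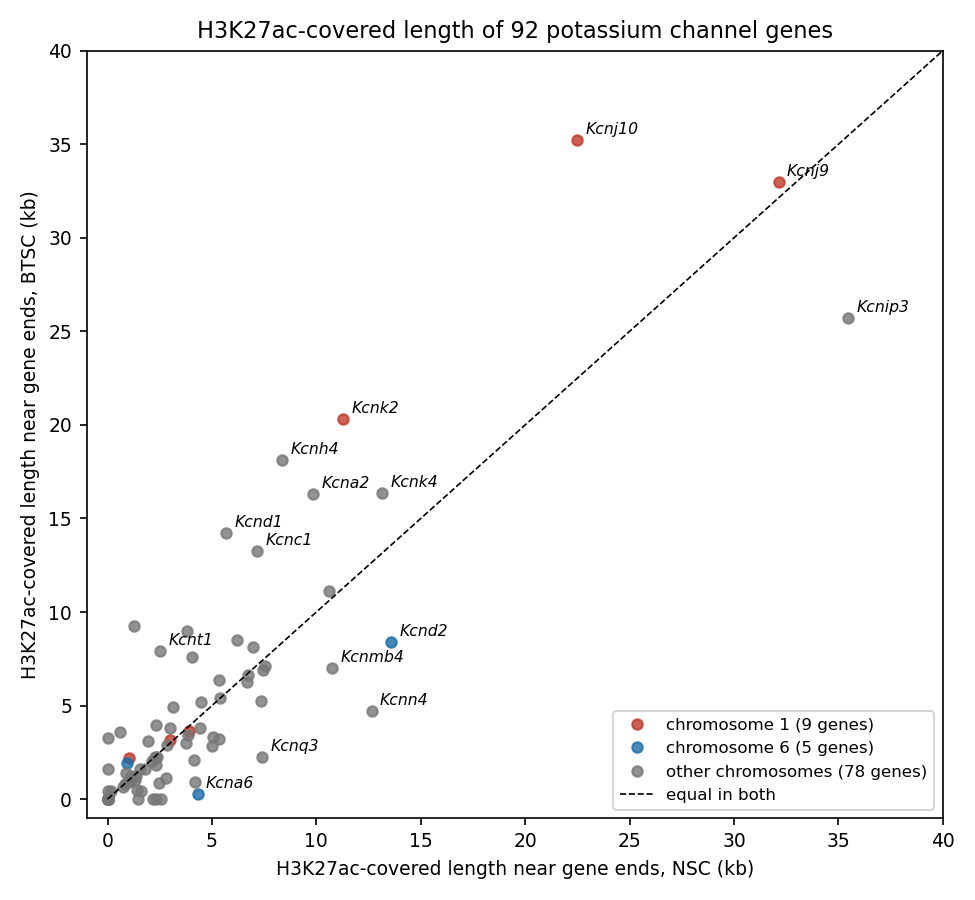
H3K27ac-covered length within 25 kb of the ends of each potassium channel gene, in kb, in NSC (x axis) and BTSC (y axis); each point is 1 gene, colour gives the chromosome and the dashed line marks equal values. Kcnip3 (35486 and 25691 bp) and Kcnn4 (12649 and 4709 bp) lie below the line, and Kcnj10 (22504 and 35238 bp) and Kcnk2 (11283 and 20297 bp), both on chromosome 1, above it.

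Genes with more in NSC were led by Kcnip3, at 35486 bp in NSC against 25691 bp in BTSC. Its start lay in 1 region of 30467 bp in NSC, while the region over the start in BTSC was 11248 bp wide. Within the span of that NSC region, BTSC had further regions at 9.09 to 10.4 kb and at 12.3 to 20.3 kb from the start. Ends of 3 other genes lay in the windows of Kcnip3. Kcnn4 had 12649 and 4709 bp, Kcnd2 13590 and 8373 bp, and Kcnq3, a Kv7 subunit of the M current, 7391 and 2240 bp. Over the whole of Kcnq3 and the 10 kb around it the order was the reverse, at 6746 and 7656 bp, and with peaks of a −log10 q of at least 5 alone the difference near its ends was 0 bp. Kcna6 had 4316 and 286 bp, Kcnmb4 10759 and 7004 bp, Kcna3, a Kv1 gene best known from lymphocytes and microglia, 4174 and 929 bp, and Kcnh8 2550 and 0 bp. With the stricter q the Kcnh8 difference was 0 bp and that of Kcna6 went from -4030 to -2481 bp. Over the whole of Kcnd2 and the 10 kb around it there were 18 H3K27ac regions in NSC covering 61442 bp and 8 in BTSC covering 32587 bp. Kcnd2 and Kcna6 are on chromosome 6, where all H3K27ac peaks covered 4.72 Mb in NSC and 3.73 Mb in BTSC; with NSC lengths scaled to the BTSC total of each chromosome, the Kcnd2 difference went from -5217 to -2347 bp.

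**Figure D5:**
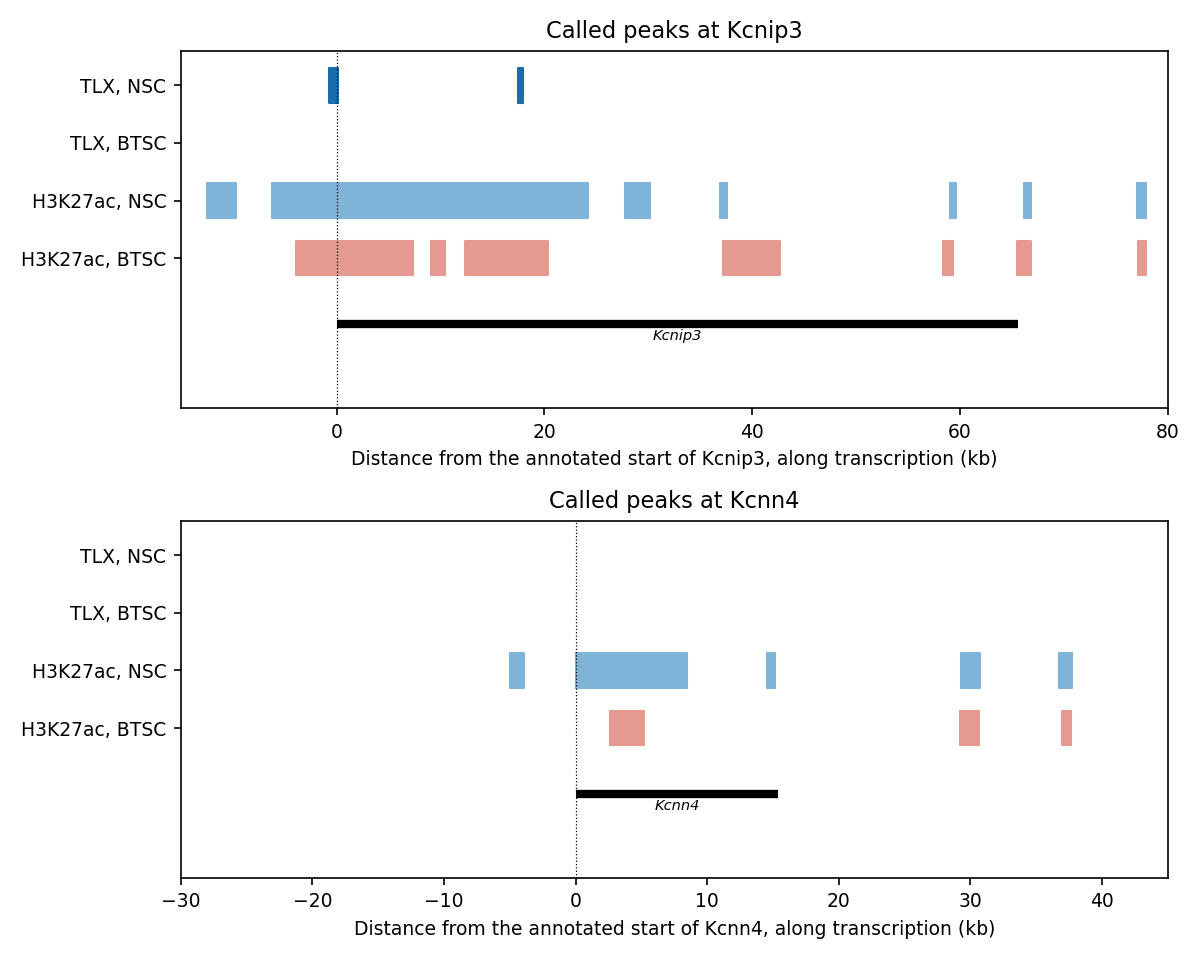
Called peaks at Kcnip3 and at Kcnn4; the x axis is the distance from the annotated start in kb, along transcription, and each row is 1 library, with potassium channel genes alone drawn below. A region of 30467 bp covers the start of Kcnip3 in NSC against 11248 bp in BTSC, where further regions lie within the span of the NSC one. The region at the start of Kcnn4 is 8395 bp wide in NSC, while the BTSC region of 2558 bp begins inside the gene.

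Genes with more in BTSC were led by Kcnj10, at 22504 bp in NSC against 35238 bp in BTSC. Chromosome 1 as a whole had 4.04 Mb covered in NSC and 6.71 Mb in BTSC, and with NSC lengths scaled to the BTSC total of that chromosome the Kcnj10 difference turned to -2101 bp. Among astrocyte markers, 5 of 6 had more covered bp in BTSC (83.3%, against 43.0% of all genes). The sums were 63655 bp in NSC and 91601 bp in BTSC, with Aqp4 at 3423 and 13428 bp and Gfap at 3809 and 10280 bp. None of these markers was at 0 in either list, and their part in the Kcnj10 difference was not tested. Kcnk2, the mechanically gated TREK-1 channel, had 11283 and 20297 bp, also on chromosome 1. The same scaling took its difference from 9014 to 1576 bp. A BTSC region of 16653 bp, at 189183715 to 189200367, lay outside Kcnk2, whose lower end is at 189207930, and overlapped H3K27ac of NSC. Among NSC regions that reached Kcnk2 or the 10 kb around it the widest had 2369 bp. It lay elsewhere, inside the gene at 189213703 to 189216071. Kcnh4, an ELK subunit of neurons, had 8369 and 18120 bp, with ends of 4 other genes in its windows; its difference of 9751 bp was 2306 bp with the stricter q and 5502 bp over the gene and the 10 kb around it. Kcnd1, the Kv4.1 pore gene, on the X chromosome, had 5690 and 14224 bp, Kcna2, a Kv1 pore of axons, 9853 and 16282 bp, Kcnc1, the Kv3.1 gene of fast-spiking neurons, 7179 and 13259 bp, and Kcnt1 2508 and 7912 bp. Over the gene and the 10 kb around it the differences were smaller, 3768 bp at Kcnd1, 4272 bp at Kcna2, 3569 bp at Kcnc1, 3034 bp at Kcnt1 and 2880 bp at Kcnk2. Of Kcnd1, Kcna2, Kcnc1 and Kcnt1, Kcna2 alone had no other gene end in its windows.

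The 3 members Kcnj9, Kcnk4 and Kcnk7 were among the 10 with the longest covered length and differed less between the lists. Kcnj9 lies next to Kcnj10 and shares part of its windows with it; it had 32143 and 32974 bp, of which the gene itself and the 10 kb around it held 6556 and 7045 bp. Kcnk4 (TRAAK) had 13166 and 16338 bp and Kcnk7 10601 and 11143 bp, with ends of 7 and 5 other genes in their windows and no H3K27ac within 1 kb of their own. The remaining genes named for their TLX peaks had 4413 and 3792 bp (Kcnj16), 1547 and 1605 bp (Kcnma1), 7455 and 6918 bp (Kcnn3), 2327 and 3948 bp (Kcnn2) and 4491 and 5203 bp (Kcna7). The genes of the class comparison not yet given had 2817 and 1108 bp (Kcnk5), 5332 and 6362 bp (Kcnip2), 2164 and 0 bp (Kcnf1) and 942 and 1922 bp (Kcna5).

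Members with a TLX peak were set beside those without, as a description. Of the 24 with a TLX peak in either list, H3K27ac lay at an end of 16 in NSC and of 14 in BTSC (66.7% and 58.3%), against 83.2% and 82.5% of the 5545 protein-coding genes with TLX. Of the 68 without TLX it lay at an end of 16 and 15 (23.5% and 22.1%), against 41.7% and 41.3% of 16342 genes, so genes with TLX had the larger share among all genes as well. The median covered lengths were 4911.5 and 5213 bp for members with TLX and 1695.5 and 1497 bp for those without, and the median gene lengths 76201.5 and 27166 bp. Covered length was greater in BTSC for 11 of the members with TLX (45.8%) and in NSC for 10 (41.7%). Of all genes with TLX the shares were 57.2% and 41.4%. Among members without TLX it was greater in BTSC for 23 (33.8%) and in NSC for 29 (42.6%), against 38.1% and 26.7% of all genes without.

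Other genes of potassium handling are given for comparison. Over all genes the shares with TLX were 24.8% in NSC and 5.12% in BTSC, and those with H3K27ac at an end 52.2% and 51.7%. Of 13 genes of pumps and cotransporters, which build the potassium gradient, 3 had TLX in NSC and 2 in BTSC, with Slc12a4, a potassium-chloride cotransporter gene, in both lists; 11 had H3K27ac at an end in NSC and 10 in BTSC. Of 17 channel partners outside the symbol rule, 4 had TLX in NSC (Dlg1, Lrrc38, Cntnap2 and the Kv4 partner Dpp6) and none in BTSC, and 5 and 7 had H3K27ac at an end. Of 49 genes of sodium, calcium, chloride and pacemaker channels, 8 had TLX in NSC and 2 in BTSC, with 6 NSC peaks at Cacna1c and 3 at Cacna1a, and 18 and 15 had H3K27ac at an end. Abcc8, which encodes the sulphonylurea receptor, and its neighbour Kcnj11, which encodes the Kir6.2 pore of the same channel, were both at 0 bp in NSC and at 3258 bp in BTSC. At Kcnj11 this was a single region, at 46102634 to 46105891 on chromosome 7 (fold 4.78). The equal length at the adjoining Abcc8 is read as the same region counted for both genes. Kcnj11 was chosen after its values were seen.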

How the data were processed

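Peak lists of 4 chromatin immunoprecipitation libraries, 1 per group, were used. Build mm10 and the tools Bowtie, ChIPseeker and bcl2fastq 2.17.1.14 are named per the submitters' processing notes; no source used here names the peak caller. Each deposited list belongs to 1 library, in the narrow peak format for TLX and the broad one for H3K27ac. Each deposited peak has a fold (a linear ratio over background), the −log10 of its p and of its q, and a deposited score, which equals 10 times the −log10 q without decimals in at least 99.99% of lines. No depth is known, so breadth and number of peaks can differ between libraries for technical reasons.

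Peaks were assigned to the genes of RefSeq's GRCm38.p6 table, which gives no strand; starts came from RefSeq's promoter table for 67 of the 92 members. Coordinates are 1-based. Overlap meant at least 1 bp, and intervals are exact Clopper-Pearson. The interval code was tested on simulated data. Python 3.11.15, numpy 2.4.6, pandas 2.3.3 and scipy 1.17.1 were used. Named members were those with TLX in BTSC, with 3 or more NSC TLX peaks or among the 12 of highest NSC q, those whose H3K27ac class differed, the 10 most covered in each list and the 8 largest differences each way, 33 genes in all. The members, lists and this rule were chosen with earlier results of these data known. Some of the named members are not reported here. Alternatives were a −log10 q of at least 5, other windows and assignments, equal list lengths, joined peaks, chromosome scaling and leaving out chromosomes 1 and 6.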

Additional observations from a re-analysis of the deposited data

How the results depend on the processing

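Of the counts, those of members with TLX moved most with the length of the list: with equal numbers of peaks, 7 members had TLX in NSC, against 4.86% of all genes. With a −log10 q of at least 5, 5 members were in the NSC class at gene ends and 2 in the BTSC class, against 2.71% and 2.05% of all genes. Without chromosomes 1 and 6, 3 of 78 members were in the BTSC class (3.85%, against 2.01% of all genes there). Among members with no other gene end in their windows, an alternative chosen after seeing the data, 10 had more covered bp in BTSC and 18 in NSC of 38. The shares over all genes, not limited in that way, were 43.0% and 30.4%. With NSC lengths scaled by chromosome, 26 members had more in BTSC and 47 in NSC, against 36.4% and 37.0% of all genes, whose shares were 43.0% and 30.4% unscaled. The other counts kept within 1.5 times the reported ones, and the shares of TLX peaks in H3K27ac, and of BTSC peaks meeting an NSC peak, did not change with an overlap of 50%. Joining H3K27ac peaks within 1 kb had nothing to join, since the smallest gaps were 1629 bp in NSC and 1665 bp in BTSC, and tests nothing.

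Some named differences in covered bp (BTSC minus NSC) turned sign. With the stricter q they were -2 bp at Kcnj9 and -117 bp at Kcnk7. Over the gene body and 10 kb around it they were -1375 bp at Kcnip2, -6638 bp at Kcnma1 and 910 bp at Kcnq3. With chromosome scaling they were -2101 bp at Kcnj10, -20358 bp at Kcnj9, -110 bp at Kcnk7 and -70 bp at Kcnma1. The remaining 31, 30 and 29 of 33 did not turn sign; some became 0, and Kcnmb2 went from 0 to -2951 bp over the gene body and 10 kb around it. The cause was not tested, beyond the construction of each alternative. No paired analysis was possible because each group has 1 library.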
